A study of Mus musculus with 16 samples.

Results

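The replication-dependent histone genes of the mouse were examined in lists of genomic regions enriched in H3K27Ac, H3K4Me1 or H3K27Me3 in female (XX) and male (XY) ES cells. They were taken as every gene whose symbol in the mm9 gene models starts with Hist1h, Hist2h, Hist3h or Hist4h. There were 70 of them among 37273 annotated genes, 67 protein-coding and 3 annotated as pseudogenes (Hist1h2aj, Hist2h3c2 and Hist3h2bb-ps). By protein, 20 belonged to H2A, 19 to H2B, 13 to H4, 12 to H3 and 6 to the linker histone H1.

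These genes supply the histones that package newly copied DNA and are transcribed mainly in S phase. They are short, lack introns in the main, and lie in clusters that are brought together in the nucleus at histone locus bodies. Their mRNAs end in a conserved stem-loop in place of a poly(A) tail, and the stem-loop is bound by the protein Slbp. ES cells divide fast and spend much of their cycle in S phase. H3K27Ac is found at active promoters and enhancers, H3K4Me1 at enhancers and on the flanks of active promoters, and H3K27Me3 is laid down by the Polycomb complex PRC2 at silent genes.

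The chromatin came from XX and XY ES cells, both of hybrid C57BL/6 x CAST/EiJ origin, at passages 7 to 10, cultured with serum and LIF on inactivated fibroblasts of both sexes that were removed before harvest. Each mark was profiled in 2 XX lines and 2 XY lines, and each sex had a single IgG and a single input library, which makes 16 samples. Their strain entry counts up by 1 from sample to sample after the F, which was read here as a labelling slip. The files hold 1 list per sex and mark, as coordinates only, so a list has no replicate, no depth and no height, and no test between the sexes could be made. The XX lists held 28784 (H3K27Ac), 39404 (H3K4Me1) and 18534 (H3K27Me3) regions, against 26100, 34800 and 15138 in the XY lists. All 8 ES cell markers looked at, Pou5f1 and Nanog among them, had H3K27Ac over the gene body or no more than 2 kb from a transcription start site (TSS) in both lists. Of 8 fibroblast markers, 0 had it in the XX list and 2 (Col1a1 and Twist1) in the XY list. Among protein-coding genes, 56.5% (XX) and 56.1% (XY) had it by the same rule. The part of feeder cells in the results was not tested.

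On chromosome 13 lay 56 of the genes, in 3 runs, 1 pair and 1 gene alone, where a run was taken to end at a gap of 100 kb. The runs were Hist1h2bl to Hist1h2br (19 genes, chr13:21807632-21929399), Hist1h2ah to Hist1h2bj (5 genes, chr13:22126982-22135545) and Hist1h4h to Hist1h1a (29 genes, chr13:23622919-23856283). Beyond them came the pair Hist1h2ba and Hist1h2aa (chr13:24025637-24026720), which code for the testis forms of H2B and H2A, and, far away, Hist1h2al (chr13:51298057-51298434). The Hist2 run held 10 genes (Hist2h2ab to Hist2h2bb, chr3:96023839-96082924), the Hist3 run 3 (Hist3h2ba to Hist3h2a, chr11:58762413-58770176), and Hist4h4 stood alone (chr6:136752589-136752900). Coordinates are those of mm9.

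The genes share sequence features, which the rule on symbols did not use. A perfect stem of 6 base pairs with a loop of 4 bases, of the histone type, was searched for in the 200 bases after the coding part. The first arm had to start with GG and the loop with TT, so the search itself set these letters. Such a stem-loop was found at 61 of the 67 protein-coding members and at 78 of all 22367 protein-coding genes (0.349%). The first match began 22 to 59 bases after the coding end at the histone genes, with a median of 31, and Hist1h2bn alone had another, at base 121. The variant histone gene H2afx was among the 17 other genes with a match. The 6 forms are shown at the first member that carried each, with the stem in capitals and the loop in small letters, because H4 genes used stems of their own.
Hist2h2aa2, chr3:96043707-96043722, minus strand: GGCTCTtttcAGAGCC
Hist2h2ab, chr3:96024256-96024271, plus strand: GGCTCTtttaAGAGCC
Hist2h2ac, chr3:96024341-96024356, minus strand: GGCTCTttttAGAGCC
Hist4h4, chr6:136752519-136752534, minus strand: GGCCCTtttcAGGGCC
Hist2h4, chr3:96066862-96066877, minus strand: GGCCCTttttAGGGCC
Hist1h4j, chr13:21827306-21827321, plus strand: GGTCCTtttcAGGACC
The first form accounted for 39 matches over H1, H2A, H2B and H3 genes, and the second for 9. The other form of that stem was seen at 2 matches, that of Hist2h2ac and the further one of Hist1h2bn. The 3 forms at Hist4h4 (8 matches), Hist2h4 (2 matches) and Hist1h4j (2 matches) were all at H4 genes, none of which had the first stem. The 6 coding members without a match were Hist2h2be, Hist2h2bb, Hist1h2an, Hist1h3g, Hist1h4a and Hist1h2al.

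Promoter motifs also separated the families. These were searched for in the 250 bases before the 5′ end: TATAAA on the strand of the gene, and CCAAT and the octamer ATTTGCAT on both strands; no 2 of them can hold each other. TATAAA was present at 26 of the 70 genes (37.1%), against 8.35% of protein-coding genes. CCAAT was present at 58 (82.9%), against 35.0%. It was found at 19 of 19 H2B, 19 of 20 H2A and 6 of 6 H1 genes, but at 4 of 13 H4 genes. The octamer, which Pou2f1 (Oct-1) binds in H2B promoters, was present at 16 (22.9%), against 1.62%. Those 16 were 7 H2A and 9 H2B genes, and no H1, H3 or H4 gene had it in this window. Where an H2A and an H2B gene start close together in opposite directions, their windows overlap. A CCAAT or octamer site in the overlap was counted for both genes, as was the octamer between Hist1h2ae and Hist1h2bg. The counts for these motifs are therefore of genes, not of separate sites, and the shares were not corrected for such sharing.

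H2A and H2B genes often share a promoter stretch. There were 14 head-to-head pairs of members with 167 to 692 bp between their 5′ ends, and 13 of them joined an H2A to an H2B gene. The stretches of 4 pairs are shown because their lists differ: H3K4Me1 lay over the first in the XY list alone, over the second in the XX list alone, H3K27Me3 lay over the third, and the testis pair had H3K27Ac alone. Capitals mark CCAAT, the octamer and TATAAA in either direction. The stretch of the testis pair is given for the 250 bases next to Hist1h2aa.
Hist1h2bl and Hist1h2ai, chr13:21808013-21808280, plus strand: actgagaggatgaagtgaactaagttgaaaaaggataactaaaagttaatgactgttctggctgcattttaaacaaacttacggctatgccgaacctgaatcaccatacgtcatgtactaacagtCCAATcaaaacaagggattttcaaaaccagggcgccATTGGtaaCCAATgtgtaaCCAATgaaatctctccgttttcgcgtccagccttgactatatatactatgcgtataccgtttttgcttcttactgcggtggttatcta
Hist1h2ae and Hist1h2bg, chr13:23663090-23663264, plus strand: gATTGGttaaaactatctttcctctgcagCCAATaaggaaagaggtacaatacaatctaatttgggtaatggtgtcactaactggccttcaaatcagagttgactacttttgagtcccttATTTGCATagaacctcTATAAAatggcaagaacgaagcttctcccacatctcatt
Hist3h2bb-ps and Hist3h2a, chr11:58768015-58768186, plus strand: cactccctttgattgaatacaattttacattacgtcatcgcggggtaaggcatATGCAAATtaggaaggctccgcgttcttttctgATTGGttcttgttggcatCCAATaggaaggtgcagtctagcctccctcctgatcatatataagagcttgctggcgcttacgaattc
Hist1h2ba and Hist1h2aa, chr13:24026081-24026330, plus strand: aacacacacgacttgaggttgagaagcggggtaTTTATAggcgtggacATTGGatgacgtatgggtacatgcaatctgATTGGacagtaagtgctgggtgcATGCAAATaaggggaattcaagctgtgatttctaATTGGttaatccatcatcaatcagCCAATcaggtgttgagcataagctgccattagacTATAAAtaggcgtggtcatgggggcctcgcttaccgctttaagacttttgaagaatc
The 4 stretches held 4, 2, 2 and 4 CCAAT boxes in this order, and the octamer was in all but that of Hist1h2bl and Hist1h2ai. A match says only that these letters are there.

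H3K27Ac lay at nearly every histone gene in both sexes. A region lay over the body, or at most 2 kb from a TSS, of 69 of 70 genes in the XX list and of 69 in the XY list, the same genes, against 56.5% of protein-coding genes in the XX list and 56.1% in the XY list. No gene had it in 1 list only, where the shares among protein-coding genes were 3.04% for the XX list alone and 2.64% for the XY list alone. Over the 5′ end itself, H3K27Ac covered 68 genes in each list, against backgrounds of 45.6% (XX) and 46.2% (XY). By this rule too, 0 genes were covered in 1 list only, against 2.39% (XX alone) and 2.95% (XY alone). The exceptions were Hist3h2ba, an H2B gene whose nearest H3K27Ac region was 4188 bp away in the XX list and 4588 bp away in the XY list, and Hist1h1t, the testis-specific H1. At Hist1h1t the nearest region was that over its neighbour Hist1h4c, an H4 gene, 1321 bp from the 5′ end in the XX list and 521 bp in the XY list.

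H3K27Me3 was rare at the histone genes. It was found at 4 of 70 genes in the XX list and 5 in the XY list, that is 5.71% (XX) and 7.14% (XY), against 37.1% (XX) and 32.4% (XY) of protein-coding genes. The mark was in the XX list alone at 0 genes and in the XY list alone at 1 (Hist1h1e), against 8.07% (XX alone) and 3.41% (XY alone). Over the 5′ end only the Hist3 run had it, 3 genes in each list, against 23.2% (XX) and 19.4% (XY), and no gene had it in 1 list only, against 6.01% (XX alone) and 2.15% (XY alone). The 5′ ends of the other 67 genes lay 2240 to 83731 bp from the nearest H3K27Me3 region in the XX list, with a median of 27878 bp, and 430 to 248801 bp in the XY list, with a median of 48500 bp. Hist1h2be, an H2B gene, was counted in the XX list through a region of 1799 bp inside its annotated body of 37383 bp. In the XY list it was counted through another region of 3599 bp, outside the body and 1808 bp from its 5′ end. The same XY region came within 430 bp of the 5′ end of Hist1h1e. The annotated 5′ end of Hist1h2be, base 23712993, was remote from the stem-loop after its coding part (chr13:23677400-23677415). Its 5′ end states and promoter motifs refer to that annotated start.

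**Figure D1:**
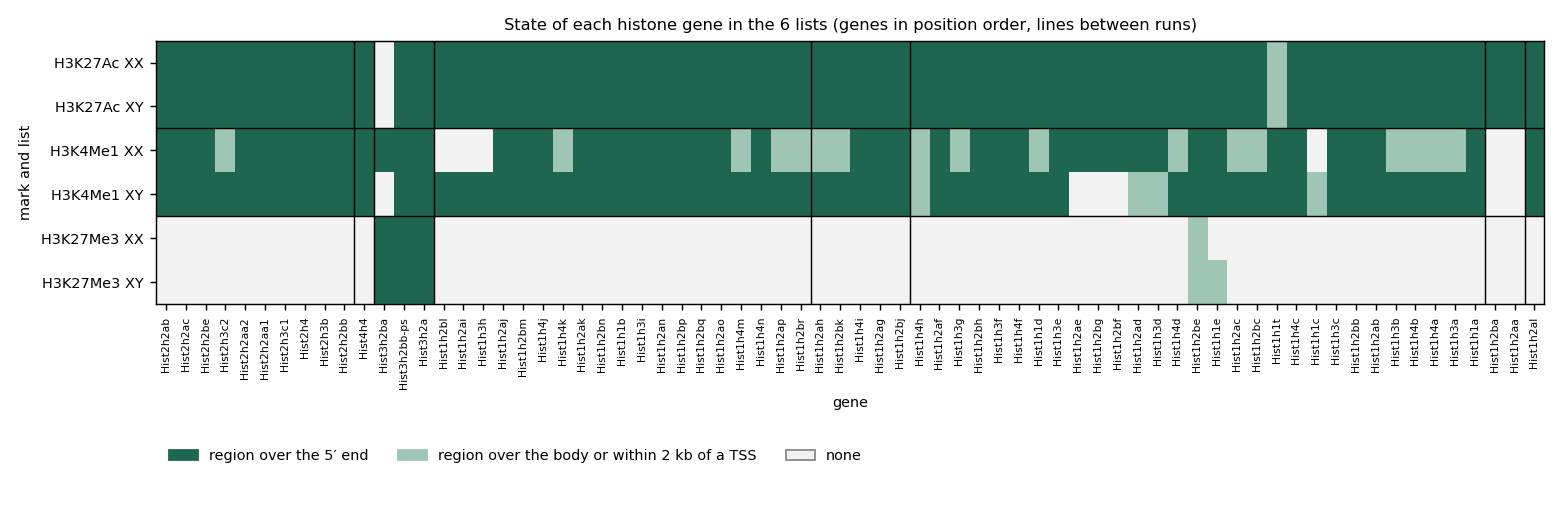
State of the 70 histone genes in the 6 lists, with genes in position order along the x axis, the marks down the y axis and the XX list above the XY list. Dark cells have a region over the 5′ end, light green cells only a region over the body or at most 2 kb from a TSS, and pale cells none; H3K27Ac fills all but Hist3h2ba and Hist1h1t at the 5′ end, and H3K27Me3 covers the 3 Hist3 genes.

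The lists differed most in H3K4Me1. By the wider rule the numbers were equal, with 64 of 70 genes in the XX list and 64 in the XY list (91.4% each), against 65.6% (XX) and 63.9% (XY) of protein-coding genes. The XX list alone had 4 of them, Hist3h2ba, Hist1h2ae, Hist1h2bg and Hist1h2bf, against a background of 4.77%. The XY list alone had 4 others, Hist1h2bl, Hist1h2ai, Hist1h3h and Hist1h1c, against 3.06%. The testis pair Hist1h2ba and Hist1h2aa had it in neither list.

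Over the 5′ end the lists parted. H3K4Me1 covered 47 genes in the XX list (67.1%) and 60 in the XY list (85.7%), while among protein-coding genes the XX share was the higher one, 44.7% in the XX list and 41.5% in the XY list. The XX list alone covered 6 of the 70 (8.57%), against 10.2%, and the XY list alone 19 (27.1%), against 7.00%. A further 41 were covered in both and 4 in neither (Hist1h4h, Hist1h1c, Hist1h2ba and Hist1h2aa). Of these, Hist1h4h, an H4 gene at the edge of its run, missed a region by 282 bp in the XX list and 82 bp in the XY list. Members are not independent here, since 1 region often spans several genes. The 5′ end rule was added after the data were seen. With regions counted up to 500 bp from the 5′ end, the contrast was smaller, with 57 genes in the XX list and 62 in the XY list. The contrast over the 5′ end itself was also seen beside genes with H3K27Ac over the 5′ end in both lists. Of 68 such histone genes, 45 had H3K4Me1 there in the XX list (66.2%) and 59 in the XY list (86.8%), and of 9673 such protein-coding genes 64.5% had it in the XX list and 59.5% in the XY list. With 1 list per sex, a difference between sexes and a difference between libraries cannot be told apart.

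The 19 genes covered in the XY list alone were spread over the clusters. They were 7 of the Hist1h2bl run, 2 of the Hist1h2ah run, 9 of the Hist1h4h run and the pseudogene Hist2h3c2. By family, 5 were H4, 5 H3, 4 H2A, 4 H2B and 1 H1 (Hist1h1d). They lay in 12 gaps of the XX list, 801 to 251001 bp long with a median of 2801 bp. Their 5′ ends were 51 to 4389 bp from the nearest XX region, with a median of 616 bp, and 9 of 19 were within 500 bp of it. One of the narrow gaps was in the Hist1h2ah run, where a single XY region of 20399 bp (chr13:22117801-22138199) ran over all 5 genes. The XX list had 2 regions there, of 9399 bp (chr13:22117401-22126799) and 16599 bp (chr13:22127801-22144399), and the gap of 1001 bp between them held the 5′ ends of Hist1h2ah and Hist1h2bk, an H2A and an H2B gene. The longest gap was of another kind. The XX list had no H3K4Me1 between a region that ended at base 21561399 of chromosome 13 and one that began at base 21812401, whereas an XY region of 21199 bp (chr13:21806801-21827999) covered the first genes of the Hist1h2bl run. The genes in this gap were Hist1h2bl, Hist1h2ai and Hist1h3h, with 4389, 4120 and 2904 bp to the nearest XX region.

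The 6 genes covered in the XX list alone were Hist3h2ba and 5 neighbours in the Hist1h4h run. Hist1h2ae, Hist1h2bg, Hist1h2bf, Hist1h2ad and Hist1h3d, which are 2 H2A genes, 2 H2B genes and an H3 gene, lay under 1 XX region of 9799 bp (chr13:23661001-23670799). The XY list had a gap of 9401 bp there and a region of 2799 bp (chr13:23668201-23670999) that began 569 bp from the 5′ end of Hist1h3d. Hist3h2ba lay under an XX region of 2999 bp, with the nearest XY region 3388 bp away.

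All 19 genes with H3K4Me1 in the XY list alone, and 5 of the 6 with it in the XX list alone, had H3K27Ac over the 5′ end in both lists. Reads from histone genes can match several copies, and the methods give reads of 50 bases. Of the 50-base stretches within 1 kb of the 5′ end, a median of 30.0% (range 5.69% to 100%) were found elsewhere on the chromosomes for the 19 genes. The median was 29.0% (6.92% to 36.8%) for the 6 genes of the XX list alone and 19.1% (0% to 100%) for the 41 genes covered in both. Over the bodies, 58 of the 70 genes had more than 10% of such stretches elsewhere, 31 had more than 50%, and 6 (Hist2h2aa1, Hist2h2aa2, Hist1h2bq, Hist1h2ao, Hist1h2ap and Hist1h2br) had 100%. The methods name Bowtie2 with default settings, under which a read with several equally good matches is placed at one of them, picked at random. Whether such reads were filtered afterwards is not given in the sources used here, and their part in the gaps was not tested.

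**Figure D2:**
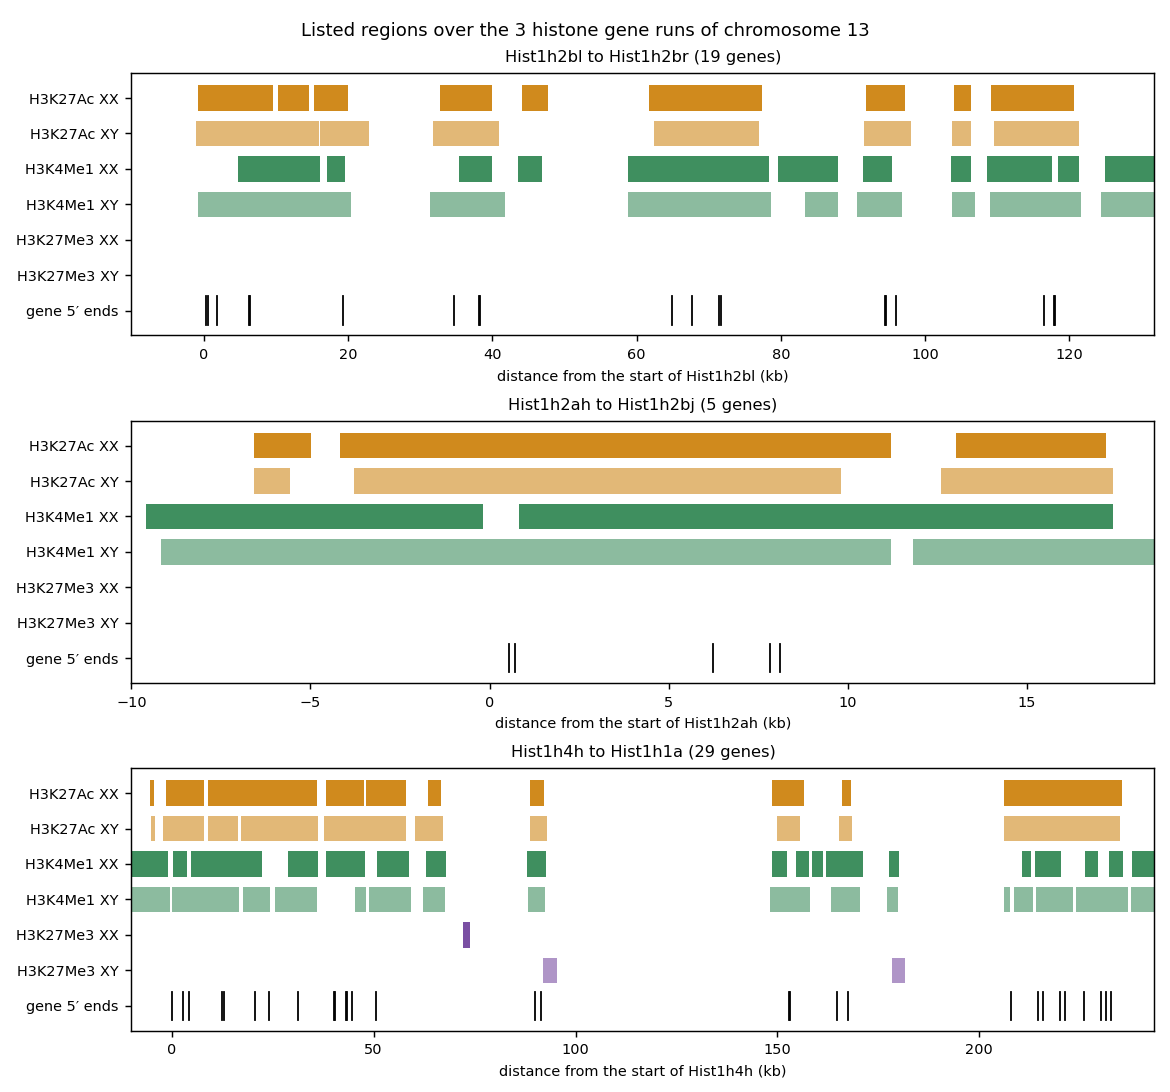
Listed regions (bars) over the 3 runs of chromosome 13, with XX above XY for each mark and black ticks at the gene 5′ ends; the x axis is the distance in kb from the start of the first gene. H3K27Ac bars cover every tick but that of Hist1h1t in both lists, the XX H3K4Me1 bars leave the first ticks of the upper 2 runs bare where the XY bars cover them, and the few H3K27Me3 bars are in the Hist1h4h run.

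Around the 5′ end, the histone genes were covered more widely by H3K27Ac than protein-coding genes. Within 1 kb on either side, H3K27Ac covered 95.9% of the length in the XX list and 96.6% in the XY list, against 42.3% (XX) and 43.3% (XY) for protein-coding genes. At 5 kb upstream, 55.7% of the histone genes were still under H3K27Ac in the XX list and 57.1% in the XY list, where 12.7% (XX) and 12.1% (XY) of protein-coding genes were. At 10 kb upstream the shares of histone genes were 44.3% (XX) and 40.0% (XY). Histone genes lie close together, so a point this far out can fall at another member. The part of neighbouring members in this coverage was not tested. H3K4Me1 covered 72.3% of the 1 kb flanks in the XX list and 86.7% in the XY list, against 47.1% (XX) and 45.1% (XY). Its profile had a dip at the start in the XX list, with 81.4% of histone genes covered at 1 kb upstream, 67.1% at the 5′ end and 74.3% at 1 kb downstream. In the XY list the shares were 88.6%, 85.7% and 85.7%. Protein-coding genes dipped in both, with 46.2%, 44.7% and 51.3% in the XX list and 45.8%, 41.5% and 50.6% in the XY list. H3K27Me3 covered 4.29% of the flanks in the XX list and 3.69% in the XY list, against 23.9% (XX) and 20.3% (XY).

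**Figure D3:**
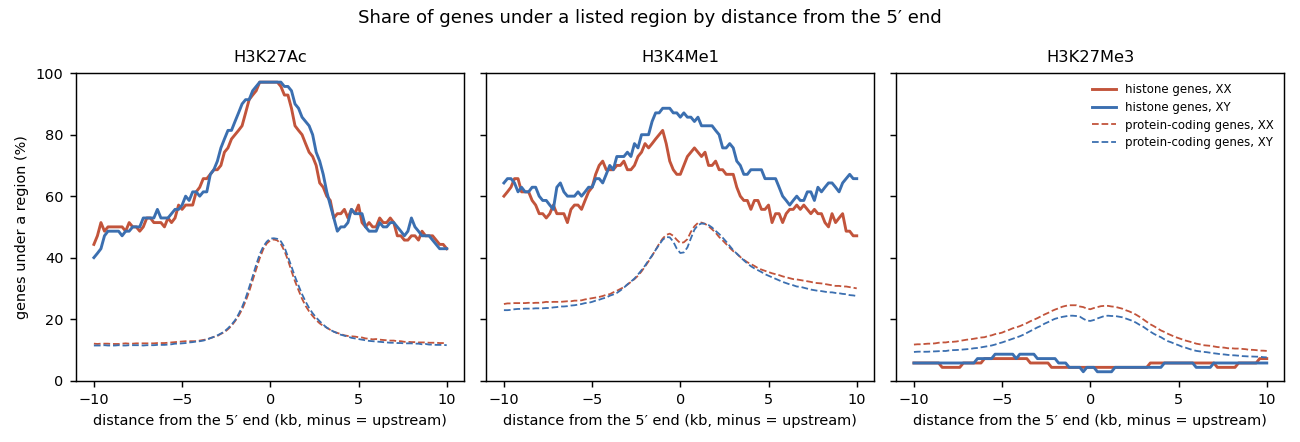
Percent of genes under a listed region (y axis) by distance from the 5′ end in kb (x axis, minus is upstream), for the 70 histone genes (solid lines) and 22367 protein-coding genes (dashed), in the XX (red) and XY (blue) lists. The XX line of the histone genes for H3K4Me1 dips to 67.1% at the 5′ end, where the XY line is at 85.7%, and the H3K27Ac lines of both lists reach 97.1%.

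The regions themselves were wide and held several genes each. At the histone genes there were 25 H3K27Ac regions in the XX list and 24 in the XY list, with median widths of 7799 bp (XX) and 8299 bp (XY), against 3599 bp (XX) and 3799 bp (XY) over the whole lists. Of these, 19 regions in each list served at least 2 genes. The widest closed the Hist1h4h run and spanned 9 genes, Hist1h1c to Hist1h1a, over 29199 bp in the XX list (chr13:23829001-23858199) and 28799 bp in the XY list (chr13:23829001-23857799). In each list 99.3% of all H3K27Ac regions were narrower. All but 1 of the 25 XX regions overlapped an XY region. The exception was a region of 1399 bp (chr3:96077401-96078799) inside the body of Hist2h2bb, and all 24 XY regions overlapped an XX region. Over the whole H3K27Ac lists, 19.1% of XX regions and 10.4% of XY regions overlapped none of the other list.

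H3K4Me1 regions at the histone genes numbered 34 in the XX list and 27 in the XY list, with median widths of 6599 bp (XX) and 10199 bp (XY), against 4999 bp (XX) and 5599 bp (XY) over the lists. The widest was 19599 bp in the XX list and 21199 bp in the XY list. Of the 27 XY regions, 9 overlapped 2 XX regions, where 10.9% of all XY regions overlapped at least 2. Of the 34 XX regions, 3 overlapped 2 XY regions, where 8.03% of all XX regions did so. Wide regions have more room for such breaks, which was not taken into account. In 1 list only were the XX regions at Hist3h2ba and inside the body of Hist1h2bc (2599 bp, chr13:23781601-23784199), and the XY region of 1599 bp just upstream of Hist1h1c (chr13:23829001-23830599), 77 bp from its 5′ end. Hist1h1c codes for a somatic H1. These were 2 of 34 XX and 1 of 27 XY regions, where over the whole H3K4Me1 lists 21.8% of XX and 13.1% of XY regions overlapped none of the other list.

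At all 14 head-to-head pairs a single H3K27Ac region lay over both starts, in the XX list and in the XY list. A single H3K4Me1 region did so at 9 pairs in the XX list and at 11 in the XY list. The pairs with it in the XY list alone were Hist1h2bl and Hist1h2ai, Hist1h2ap and Hist1h2br, Hist1h2ah and Hist1h2bk, and Hist1h2ac and Hist1h2bc. Those with it in the XX list alone were Hist1h2ae and Hist1h2bg, and Hist1h2bf and Hist1h2ad. H3K27Me3 joined 1 pair, Hist3h2bb-ps and Hist3h2a, in both lists.

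The small clusters did not all look like the large one. The Hist2 run resembled it, with H3K27Ac over the 5′ end of 10 of 10 genes in both lists, H3K4Me1 over 9 in the XX list and 10 in the XY list, and H3K27Me3 at 0. Its length was covered to 60.7% (XX) and 61.1% (XY) by H3K27Ac and to 73.6% (XX) and 83.1% (XY) by H3K4Me1. Hist4h4, an H4 gene, lay under H3K27Ac and H3K4Me1 in both lists, and its H3K27Ac region of 12399 bp had the same coordinates in each (chr6:136751601-136763999). That region also held the variant histone gene H2afj (chr6:136756769-136758595), with H3K27Ac over its 5′ end in both lists. Hist1h2al, the H2A gene far out on chromosome 13, had H3K27Ac and H3K4Me1 over its 5′ end in both lists. Its H3K27Ac region was 7599 bp wide in the XX list and 5799 bp in the XY list, and its H3K4Me1 region 4599 bp in each.

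The Hist3 run carried H3K27Me3. An XX region of 24799 bp (chr11:58755201-58779999) covered the whole run, and in the XY list 2 regions of 12399 bp (chr11:58756001-58768399) and 12799 bp (chr11:58769401-58782199) covered 87.1% of it. H3K27Ac covered 36.1% of the run in the XX list and 40.9% in the XY list, over the promoter that Hist3h2bb-ps and Hist3h2a share. H3K4Me1 covered 63.9% (XX) and 56.4% (XY). Over the 5′ ends of Hist3h2bb-ps and Hist3h2a all 3 marks were listed in each sex, as at 5.27% of protein-coding genes in the XX list and 4.18% in the XY list. Hist3h2ba had H3K4Me1 with H3K27Me3 in the XX list and H3K27Me3 alone in the XY list. Trim17, a ubiquitin ligase gene that overlaps the run, had all 3 marks over its 5′ end in both lists.

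The 3 genes of testis histones each lacked 1 of the marks that most members on chromosome 13 carried over the 5′ end. A lack of H3K4Me1 there was not particular to them. Hist1h4h and the somatic Hist1h1c also had none over the 5′ end in either list. On this chromosome H3K4Me1 covered the 5′ end of 34 of 56 members in the XX list and 47 in the XY list. Hist1h2ba and Hist1h2aa shared a H3K27Ac region of 1799 bp (chr13:24025001-24026799) in the XX list and 1399 bp (chr13:24025401-24026799) in the XY list, which were the narrowest at any member of that chromosome. Their nearest H3K4Me1 region was more than 55 kb away in either list, at 56176 bp (XX) and 55376 bp (XY) for Hist1h2ba. Hist1h1t had H3K4Me1 over its 5′ end in both lists but no H3K27Ac there. None of the 3 had H3K27Me3 by this wider rule in either list.

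H3K27Ac covered less of the stretches between the runs than of the runs. It covered 52.5% (XX) and 55.3% (XY) of the Hist1h2bl run, 100% in both lists of the Hist1h2ah run, and 42.1% (XX) and 43.8% (XY) of the Hist1h4h run. In the 197582 bp between the Hist1h2bl and Hist1h2ah runs it covered 20.03% (XX) and 14.3% (XY). H3K4Me1 covered 54.0% (XX) and 51.7% (XY) of this stretch. In the runs it covered 56.3% (XX) and 63.4% (XY) of the Hist1h2bl run, 90.4% (XX) and 100% (XY) of the Hist1h2ah run, and 38.7% (XX) and 43.1% (XY) of the Hist1h4h run. H3K27Me3, at 0% of both flanking runs, covered 21.8% (XX) and 19.9% (XY) of this stretch. It held the zinc finger gene Zfp184, with H3K27Ac in both lists, and Pom121l2 and the thymic protease gene Prss16, both with H3K27Me3 over the 5′ end and no H3K27Ac in either list. Of the XX regions there, 5 of 14 for H3K27Ac and 4 of 15 for H3K4Me1 overlapped no XY region, against 19.1% (H3K27Ac) and 21.8% (H3K4Me1) of the whole XX lists. Of the XY regions, 0 of 9 for H3K27Ac and 1 of 10 for H3K4Me1 overlapped no XX region, against 10.4% (H3K27Ac) and 13.1% (H3K4Me1) of the whole XY lists.

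Most of the stretch of 1487373 bp between the Hist1h2ah and Hist1h4h runs fell into a bare and a marked piece. Its first part, from the Hist1h2ah run to Vmn1r188, belongs to neither piece, and its coverage was not calculated separately. A U3 snoRNA gene in that part had H3K27Ac and H3K4Me1 by the wider rule in both lists. The whole stretch holds 33 vomeronasal receptor genes, which are expressed in sensory neurons of the vomeronasal organ, and 0 of them had any of the 3 marks in any list. Over the 1162446 bp from Vmn1r188 to Vmn1r223, coverage was 2.29% (XX) and 3.42% (XY) for H3K27Ac, 0.155% (XX) and 0.688% (XY) for H3K4Me1, and 0% in both lists for H3K27Me3. In the 280726 bp from there to Hist1h4h it was 19.1% (XX) and 16.8% (XY) for H3K27Ac, 41.6% (XX) and 46.8% (XY) for H3K4Me1, and 20.4% (XX) and 20.5% (XY) for H3K27Me3. There Zfp322a and Abt1, a zinc finger gene and an activator of basal transcription, had H3K27Ac over the 5′ end in both lists. The butyrophilin gene Btn1a1 had H3K4Me1 and H3K27Me3 there and no H3K27Ac. Its neighbour Btn2a2 had H3K27Ac over the 5′ end in the XY list and elsewhere in the gene in the XX list.

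Past Hist1h1a, 169353 bp with Trim38 and the transporter genes Slc17a1 to Slc17a4 led to the testis pair. H3K27Ac covered 2.81% (XX) and 1.03% (XY) of it, H3K4Me1 6.80% (XX) and 8.22% (XY), and H3K27Me3 2.83% (XX) and 0% (XY). None of the 5 genes had H3K27Ac or H3K4Me1, and Slc17a1 alone had H3K27Me3, in the XX list. Inside the Hist1h4h run itself, between Hist1h4c and Hist1h1c, lies Hfe, which regulates iron uptake. It had H3K4Me1 over the 5′ end in both lists, H3K27Me3 there in the XY list alone, and no H3K27Ac in either.

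**Figure D4:**
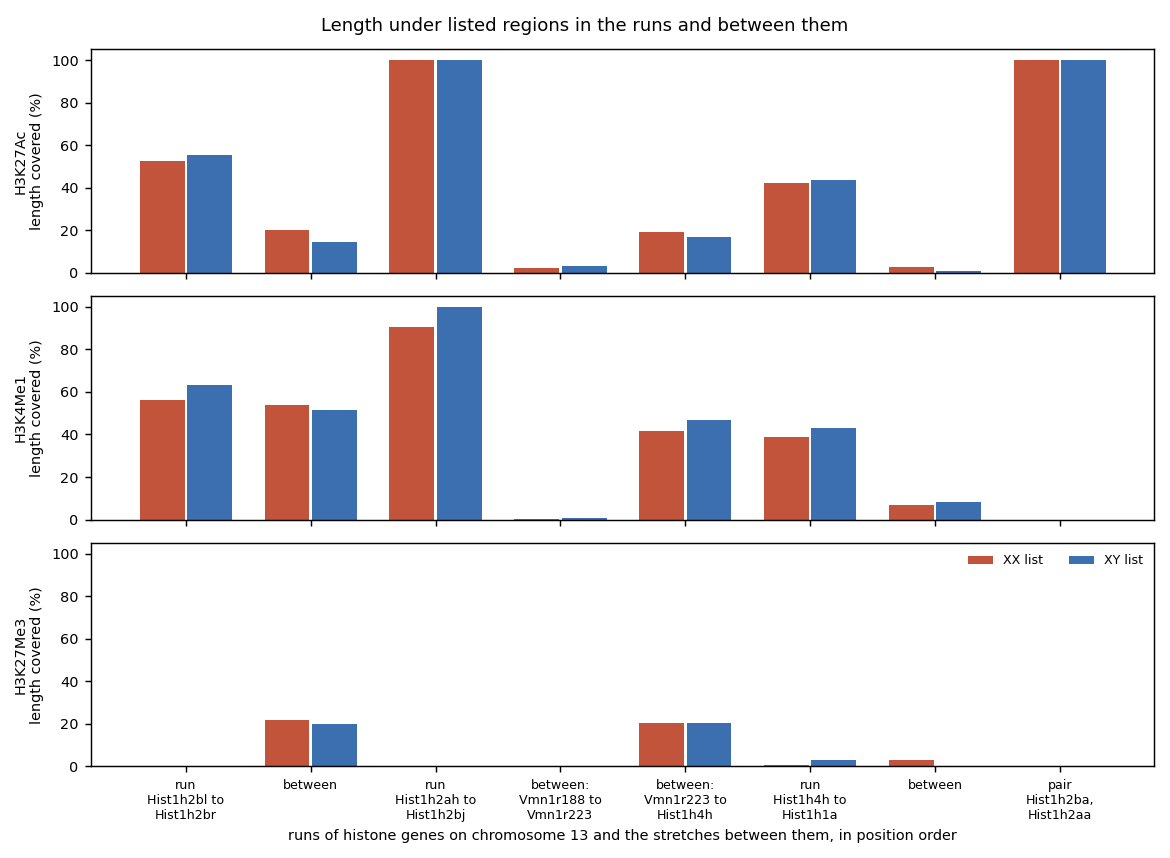
Percent of length under listed regions (y axis) in the runs of histone genes on chromosome 13 and in the stretches between them, in position order along the x axis, with the XX list (red) left of the XY list (blue). The part from the Hist1h2ah run to Vmn1r188 is not drawn. H3K27Ac covers 42.1% or more of each run in the XX list and 43.8% or more in the XY list, and 20.03% or less of each stretch drawn between them, while H3K27Me3 lies mostly between the runs.

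Genes that make, process and deposit histone mRNA and protein were described for comparison. All 24 of them, among them Npat, the coactivator of histone genes in S phase, Slbp, and the U7 particle genes Lsm10 and Lsm11, had H3K27Ac by the wider rule in both lists. H3K27Ac lay over the 5′ end of 23 in each list, against 45.6% (XX) and 46.2% (XY) of protein-coding genes. H3K4Me1 lay over that of 9 in the XX list and 11 in the XY list, against 44.7% (XX) and 41.5% (XY). H3K27Me3 was listed at 4 in the XX list (Hinfp, Casp8ap2, Sympk and Asf1b) and at 2 in the XY list (Sympk and Asf1b). Of 16 annotated histone genes outside the rule, the replacement variants and germ cell forms, 12 in each list had H3K27Ac, 12 in each H3K4Me1, and 9 in the XX list and 7 in the XY list H3K27Me3. By the wider rule the shares among protein-coding genes were 56.5% (XX) and 56.1% (XY) for H3K27Ac. They were 65.6% (XX) and 63.9% (XY) for H3K4Me1, and 37.1% (XX) and 32.4% (XY) for H3K27Me3. The oocyte gene H1foo and the spermatid gene Hils1 had H3K27Me3 in the XX list with neither other mark in either list, and Hils1 also had it in the XY list.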

How the data were processed

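The ChIP-seq libraries covered 3 histone marks in XX and XY ES cells. The authors placed reads on mm9 with the defaults of Bowtie2, determined enrichment with Bedtools, and deposited 6 lists of enriched regions, 1 per sex and mark, whose only values are a start and an end in base pairs. The submitters' processing notes name Bowtie and deepTools. For the rule that called a region, its threshold and the pooling of lines, IgG and input, the sources used here give nothing. Starts and ends lie on a grid of 200 bp. Depth is unknown and the lists are unreplicated, so no SD, interval or test is given. Unused value columns numbered 0.

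Gene models were GENCODE M1 on NCBIM37, the assembly of mm9. A mark was assigned to a gene with a region over its body or at most 2 kb from a TSS, or, more strictly, over its 5′ end; the background was 22367 protein-coding genes. Regions sharing at least 1 bp were called shared. Stretches of 50 bases were counted by exact match on chromosomes 1 to 19, X and Y. Named were genes whose state differed between lists, those without H3K27Ac or with H3K27Me3, testis genes, genes outside chromosome 13, run ends, head-to-head pairs, copies, list-only regions and marked genes between runs. Members, lists and rules were chosen with earlier results of these data known. The 5′ end rule and its alternatives were added after seeing the data. Overlaps were tested on 200 simulated lists, and 6 of 6 counts equalled those of Bedtools 2.31.1. Python 3.11.15, NumPy 2.4.6, SciPy 1.17.1 and matplotlib 3.10.9 were used.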

Additional observations from a re-analysis of the deposited data

How the results depend on the processing

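No paired analysis was possible because there is 1 list per sex and mark, with no values per line, and no test was made. Of 228 values under alternatives, 170 stayed within 1.5 times the reported count or, for coverage, within its binomial interval over 200-bp windows. Regions span many neighbouring windows, which are therefore not independent. The interval served only as a limit for this tally and measures no spread between lines. The counts of the 70 genes with H3K27Ac or H3K4Me1 in a list moved beyond 1.5 times only where members with copied sequence were left out. Only 12 members, or 19 at the 5′ end, were then left, so these raw counts had to fall. Such moves are among the values outside the limits and do not show a dependence on copied sequence. Counts of genes in 1 list only depended on the rule. Shares among protein-coding genes were not counted under the alternatives, so the counts given for them below have no background. Limits: the lists give presence only, a list's length follows an unknown depth and threshold, and copied sequence is common at these genes.

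The 12 members with under 10% copied stretches gave 12 (XX) and 12 (XY) with H3K27Ac, 10 (XX) and 11 (XY) with H3K4Me1, of which 0 in the XX and 1 in the XY list alone, and 2 (XX) and 2 (XY) with H3K27Me3, 0 of them in the XY list alone. At the 5′ end the 19 such members gave 17 (XX) and 17 (XY) for H3K27Ac and 13 (XX) and 15 (XY) for H3K4Me1, with 1 in the XX and 3 in the XY list alone.

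With 5 kb, H3K4Me1 was in the XX list alone at 0 and in the XY list alone at 0 genes, and H3K27Me3 was at 7 (XX) and 8 (XY). With 1 kb, H3K27Ac was in the XY list alone at 1 and H3K27Me3 in the XX list alone at 1. Over the body alone, H3K27Ac was in the XY list alone at 1, H3K4Me1 in the XY list alone at 11, H3K27Me3 in the XX list alone at 1 and at 3 in the XY list, 0 of them in that list alone. Over a TSS, H3K4Me1 was in the XY list alone at 18, H3K27Me3 at 3 in the XY list and 0 in it alone; other histone genes then gave 7 (XY) for H3K4Me1 and 5 (XX) and 3 (XY) for H3K27Me3, and machinery genes 15 (XX) for H3K4Me1 and 1 (XX) and 0 (XY) for H3K27Me3.

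With the widest 50% of each list, H3K27Ac was in the XY list alone at 4 (5 at the 5′ end), H3K4Me1 in the XX list alone at 7 and in the XY list alone at 16, and H3K27Me3 at 3 in the XY list, 0 in it alone. Coverage between the runs, reported as 7.08% (XX) and 6.63% (XY) for H3K27Ac, 13.4% (XX) and 14.3% (XY) for H3K4Me1 and 5.77% (XX) and 5.23% (XY) for H3K27Me3, was then 4.34% (XX) and 4.44% (XY), 9.88% (XX) and 12.5% (XY), and 4.90% (XX) and 4.59% (XY). With a gap of 200 kb it was 5.85% (XX) for H3K27Ac, 8.73% (XX) and 10.1% (XY) for H3K4Me1, and 3.98% (XX) and 3.87% (XY) for H3K27Me3. Equal list sizes put H3K27Me3 in the XY list alone at 2. Within 500 bp of the 5′ end, 11 genes had H3K4Me1 and 1 had H3K27Me3 in the XY list alone. A reciprocal overlap of 50% left 20 XX regions for H3K4Me1 and 0 (XX) and 0 (XY) for H3K27Me3 as shared. The causes were not tested.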
